A study of Mus musculus with 12 samples.

Results

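The 10 genes described here form the core of JAK-STAT signalling and its SOCS feedback: the kinases Jak1 and Jak2, the transcription factors Stat3, Stat5a, Stat5b and Stat6, and the feedback inhibitors Socs1, Socs2, Socs3 and Cish. They were taken by symbol from a table of 55450 genes, all 10 were found, and all 10 passed the filter on low counts. RNA was measured in bone marrow cells that lacked lineage markers and carried the receptor Kit, the stem and progenitor compartment. They were donor cells sorted out of the marrow of competitive transplant recipients, in which donor and competitor marrow share 1 recipient. There were 12 libraries of total RNA depleted of ribosomal RNA, 3 for each of 4 genotype labels: wild type (WT), Tet2 knockout (Tet2KO), Id1 knockout (Id1KO) and the knockout of both genes (dKO). All 4 groups are donor cells from transplanted mice. The alleles, how they were deleted, the ages, the time after transplant and the number of mice behind a library are not given in the sources used here. Tet2 encodes a DNA dioxygenase often lost in clonal hematopoiesis, and the Id1 protein inhibits basic helix-loop-helix transcription factors. The comparisons ask which transcripts differ with the loss of either gene, and whether the difference that goes with Id1 changes when Tet2 is also lost.

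Cytokine receptors without kinase activity of their own carry Janus kinases, which phosphorylate STAT proteins when a ligand binds. The STAT dimers move to the nucleus and bind DNA at palindromic sites, and among the genes they induce are Socs1, Socs2, Socs3 and Cish. The SOCS proteins then bind the receptor or the kinase and end the signal. In blood progenitors Jak2 serves the receptors for erythropoietin, thrombopoietin and the granulocyte-monocyte factors, Stat5a and Stat5b act downstream of these, Stat3 acts downstream of the gp130 and G-CSF receptors, and Stat6 acts downstream of the IL-4 receptor. Because SOCS transcripts are products of the pathway, they are commonly read as its output, whereas JAK and STAT transcripts are its components. RNA levels do not measure phosphorylation.

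The short palindrome to which STAT dimers bind, TTCNNNGAA, was searched on both strands of RefSeq promoter windows on GRCm38.p6, each from 250 bases before to 50 bases after a transcript start. Windows were found for 9 of the 10 genes, 11 windows in all, and none matched Socs2. The motif was present for 2 of the 9 genes, Socs3 and Cish. Stat3 and Jak2, which were also called in at least 1 comparison below, had no match. Of all 27025 genes with a window, 9.55% had one with the motif. Of all 32851 windows, 8.3% held the motif and 0.457% held at least 2 copies. The stretches that carry it are shown 5′ to 3′ on the strand of the gene, with the motif in capitals.
Socs3: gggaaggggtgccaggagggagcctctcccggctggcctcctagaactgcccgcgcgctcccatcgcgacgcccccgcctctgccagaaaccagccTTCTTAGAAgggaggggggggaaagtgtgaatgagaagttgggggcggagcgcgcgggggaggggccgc
Cish: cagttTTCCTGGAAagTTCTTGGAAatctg
The Socs3 stretch is chr11:117969452-117969616 on the minus strand, bases -250 to -86 from the transcript start, and its motif lies at -154 to -146. In GENCODE M21 this motif is inside the span of the gene but in no exon. The Cish stretch is chr9:107296654-107296683 on the plus strand. Counting the transcript start as base 1, its 2 copies lie at 1 to 9 and at 12 to 20, within an exon of a longer GENCODE transcript. A match is a description of the letters and no evidence that a STAT protein is bound in these cells.

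The library labels were compared with the targeted genes first. Tet2 RNA was not lower in libraries labelled null for it, with 99.3 ± 2.2 CPM in WT and 130 ± 2.5 in Tet2KO (SD, n = 3 libraries). Id1 RNA was not lower in Id1KO, where each library held at least 70 counts, against 24 to 34 in the WT libraries. Names such as Id1KO therefore stand below for libraries labelled so, and every direction rests on those labels. CPM are counts scaled to a common library total, after TMM scaling. The libraries held 15706407 to 19959183 estimated counts in total, 14346 genes were tested, and the biological coefficient of variation was 0.031. Libraries of a genotype carry 1 sample number in their titles and may be repeats of 1 cell sample, so p-values measure only the spread between these libraries, which may be technical. Of the markers of the sorted population, Kit stood at 315 to 365 CPM and Myb at 804 to 892 in the genotype means. Of 11 lineage markers that the sort removes, 6 were too low to be tested, among them Cd3e and Ly6g, whereas Ly6c2 stood at 494 to 772 CPM.

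Socs3 was the member that differed most between genotype labels. Its mean level rose 2.97-fold from WT, the lowest, to Id1KO, the highest, with Tet2KO and dKO between them. SOCS3 binds gp130 and the G-CSF receptor together with their kinase and limits STAT3 signalling, and its transcript is itself a STAT3 product. The WT libraries held 1.56, 1.91 and 2.22 CPM of Socs3. The Tet2KO libraries held 3.68, 3.34 and 3.72 CPM. The Id1KO libraries held 6.15, 5.72 and 5.01 CPM, and the dKO libraries 4.31, 4.07 and 4.25 CPM. No library of one genotype overlapped those of another for any of the 6 genotype pairs. In reads these levels are low: 30 to 41 counts per WT library, 56 to 69 in Tet2KO, 91 to 112 in Id1KO and 68 to 72 in dKO.

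On the log2 scale Socs3 was 0.92 ± 0.16 (SE) higher in Tet2KO than in WT (edgeR adjusted p 0.000133). It was higher than WT by 1.57 ± 0.14 in Id1KO (edgeR adjusted p 2.05e-07) and 1.15 ± 0.15 in dKO (1.56e-05). With Tet2 labelled intact, the Id1 label thus went with a rise of 1.57, whereas dKO stood 0.23 ± 0.14 above Tet2KO, which did not pass the test (edgeR adjusted p 0.235). The difference between these 2 changes, the interaction, was -1.34 ± 0.2, with an edgeR adjusted p of 0.000147. dKO was lower than Id1KO by a log2 fold change of -0.42 ± 0.13 (edgeR adjusted p 0.0258). That last call was lost when Id1KO replicate 1 or 2 or dKO replicate 1, 2 or 3 was left out, with adjusted p up to 0.115, and under DESeq2. The 3 calls against WT and the interaction held when any 1 of the 12 libraries was left out, with adjusted p up to 0.00127.

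**Figure D1:**
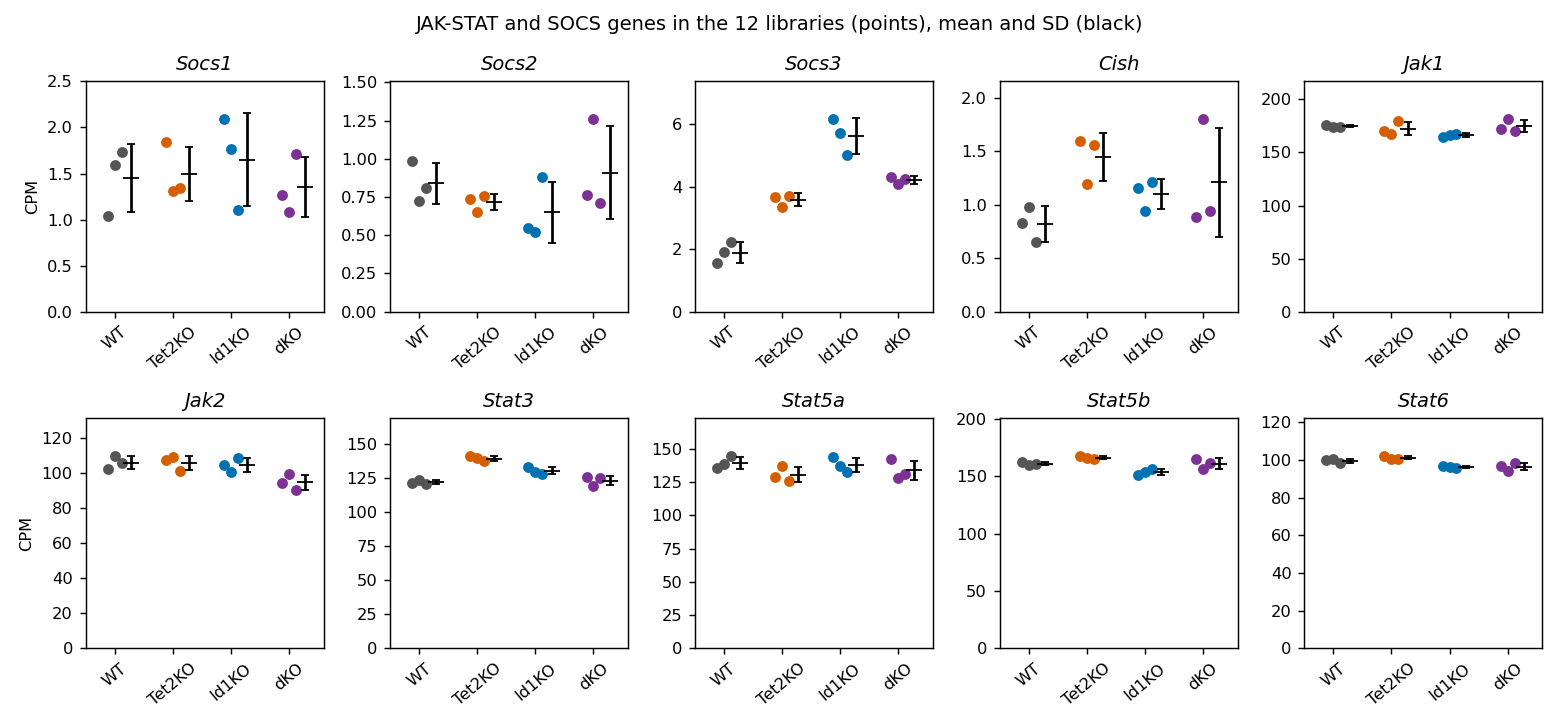
Level of each of the 10 genes in CPM (y axis, from 0) in every library (coloured points) under the 4 genotype labels (x axis), with the mean and SD of 3 libraries in black. The 4 groups of Socs3 libraries do not overlap, from 1.56 to 2.22 CPM in WT to 5.01 to 6.15 in Id1KO, whereas the Jak1, Stat5a, Stat5b and Stat6 panels are nearly level.

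The other SOCS members were near the limit of what these libraries resolve. Cish encodes an inhibitor that STAT5 induces in response to erythropoietin, IL-2 and IL-3. Its WT libraries held 0.83, 0.98 and 0.65 CPM and its Tet2KO libraries 1.59, 1.19 and 1.56 CPM, which did not overlap. The Id1KO libraries held 1.15, 0.94 and 1.21 CPM. The dKO libraries held 0.89, 1.8 and 0.95 CPM, where 1 library stood above all other 11 and the other two lay within the WT range. Cish was higher in Tet2KO than in WT by a log2 fold change of 0.82 ± 0.29 (edgeR adjusted p 0.035), and it passed the test in no other comparison. The summed counts were 47 in WT and 75 in Tet2KO, or 0.822 CPM with an exact 95% Poisson interval of 0.604 to 1.09 against 1.45 with 1.14 to 1.82. Such intervals cover counting error only. The call was lost under DESeq2 and without WT replicate 1 or 3 or Tet2KO replicate 1 or 3, with adjusted p up to 0.123.

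Socs1, an inhibitor of the interferon and IL-4 signals, stood at 1.04 to 2.09 CPM over the 12 libraries, with 18 to 38 counts in each. Socs2, an inhibitor of the growth hormone receptor that STAT5 induces, stood at 0.52 to 1.26 CPM, with 10 to 21 counts. All 4 genotype ranges overlapped for both genes, and neither was called in any of the 6 comparisons. At these counts the intervals are wide. For Socs1 the pairwise 95% intervals reached from -0.82 to 0.7 on the log2 scale, and for Socs2 from -1.0 to 1.11, and differences within these bounds are not excluded.

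Among the STATs, Stat3 was the one that passed the test, and its differences were small. STAT3 carries signals of the IL-6 family and of G-CSF and induces Socs3. The WT libraries held 121, 123 and 120 CPM and the Tet2KO libraries 141, 139 and 137. The Id1KO libraries held 133, 129 and 128 CPM, and the dKO libraries 125, 119 and 125. The WT and dKO libraries overlapped, Id1KO stood above both, and Tet2KO stood above all. Against WT, Stat3 had a log2 fold change of 0.19 ± 0.029 in Tet2KO (edgeR adjusted p 3.49e-05) and of 0.1 ± 0.029 in Id1KO (0.0275). For dKO against WT it was 0.015 ± 0.029 (edgeR adjusted p 0.781). dKO was lower than Tet2KO by a log2 fold change of -0.18 ± 0.029 (edgeR adjusted p 0.000143). The interaction was -0.28 ± 0.041 (edgeR adjusted p 0.000136). The call in Id1KO against WT was lost under DESeq2, without the filter, and without WT replicate 1, WT replicate 3 or Id1KO replicate 1, with adjusted p up to 0.112. None of these Stat3 differences, the interaction included, passed a test against a 1.2-fold change (edgeR glmTreat).

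Both Socs3 and Stat3 thus had a negative interaction and were lower in dKO than the 2 single labels would add up to. Their orders were different, however. Socs3 ran WT, Tet2KO, dKO, Id1KO from low to high, and Stat3 ran WT, dKO, Id1KO, Tet2KO. In the libraries with the highest Stat3, those labelled Tet2KO, Socs3 stood at 3.58 ± 0.21 CPM (SD, n = 3 libraries), below its 5.63 ± 0.58 in Id1KO.

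Stat5a and Stat5b, the 2 STATs downstream of the erythropoietin and thrombopoietin receptors, were called in no comparison. The means of Stat5a were 140 ± 4.5 CPM (WT), 131 ± 5.7 (Tet2KO), 138 ± 5.5 (Id1KO) and 134 ± 7.2 (dKO), and all genotype ranges overlapped. Stat5b stood at 161 ± 1.6, 166 ± 1.2, 154 ± 2.6 and 161 ± 4.6 CPM in the same order. Its Id1KO libraries lay below all WT and all Tet2KO libraries, with a log2 fold change against WT of -0.06 ± 0.027 that did not pass the test (edgeR adjusted p 0.121). The transcripts of Stat5a and Stat5b are 90.5% identical over 2337 bp, with a longest identical run of 324 bp, so some reads fit both. They were the 2 members whose estimated counts were not whole numbers, and in all 12 libraries their sum was whole to within 0.005. Summed into 1 feature, chosen after the data were seen, they gave log2 fold changes between -0.04 and 0.03 and no call. Stat6, which carries IL-4 and IL-13 signals, stood at 99.7 ± 1.2, 101 ± 0.76, 96.2 ± 0.59 and 96.6 ± 2.0 CPM, again in that order. It was not called, although Tet2KO libraries lay above all others. The pairwise 95% intervals reached from -0.18 to 0.12 for Stat5a, -0.12 to 0.12 for Stat5b and -0.12 to 0.08 for Stat6, on the log2 scale.

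Stat5b, Stat5a and Stat3 are neighbours on chromosome 11 of GRCm38, between 100780731 and 100939540, with no other GENCODE M21 gene between them. Stat5b and Stat3 lie on the minus strand and Stat5a on the plus strand. Stat3 and Stat5a share 72 exonic bp at their ends, and the strand setting of the counting is not given in the sources used here, so reads from that stretch may be credited to either. The 72 bp are a small part of the 9527 exonic bp of Stat3. Stat3 was higher in Tet2KO than in WT while the log2 fold change of Stat5a was -0.1 ± 0.041 and did not pass (edgeR adjusted p 0.0729).

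Jak2 was lower in dKO than in each of the other 3 labels. It is the kinase of the erythropoietin, thrombopoietin and IL-3 receptors and the gene mutated in most polycythemia vera. The dKO libraries held 94.2, 99.5 and 90.7 CPM of Jak2, all below the other 9 libraries. The WT libraries held 102, 110 and 106 CPM, the Tet2KO libraries 108, 109 and 102 and the Id1KO libraries 105, 101 and 109, and these 3 groups overlapped. The log2 fold change was -0.16 ± 0.041 against WT (edgeR adjusted p 0.0073), -0.16 ± 0.041 against Tet2KO (0.00612) and -0.14 ± 0.041 against Id1KO (0.0177). These 3 values share the dKO libraries. The interaction was -0.14 ± 0.057 and did not pass (edgeR adjusted p 0.104). None of the 3 passed a test against a 1.2-fold change (edgeR glmTreat). The difference from Tet2KO held when any 1 library was left out. That from WT was lost without WT replicate 2 or dKO replicate 3 (up to 0.0584), and that from Id1KO without Id1KO replicate 1 or 3 or dKO replicate 1 or 3 (up to 0.105).

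Jak1, the kinase shared by gp130, interferon and common gamma chain receptors, was the most abundant member in CPM and was called in no comparison. Its level was 175 ± 1.1 CPM in WT, 175 ± 5.7 in dKO, 172 ± 6.1 in Tet2KO and 166 ± 1.6 in Id1KO. Its Id1KO libraries lay below all WT and all dKO libraries, with a log2 fold change against WT of -0.07 ± 0.03 (edgeR adjusted p 0.112). The pairwise 95% intervals of Jak1 reached from -0.13 to 0.13.

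**Figure D2:**
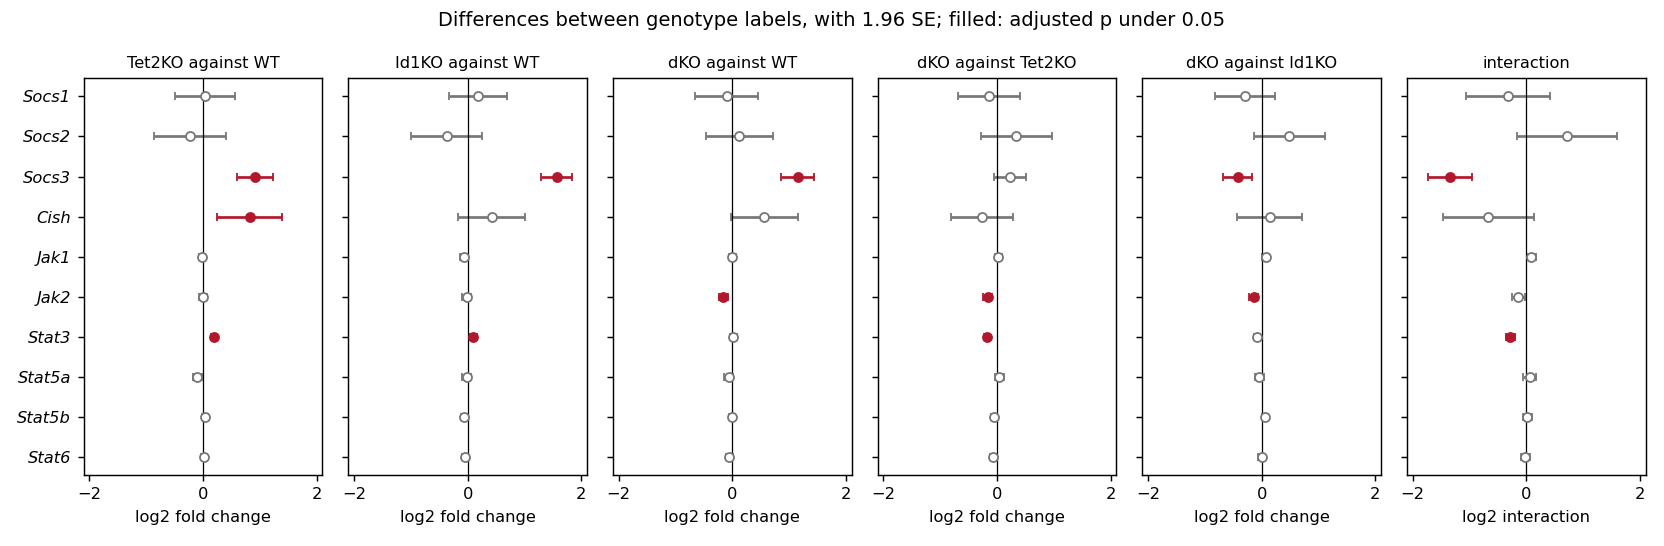
Log2 fold change of each of the 10 genes (rows) in the 5 pairwise comparisons and the interaction (panels), with bars of 1.96 SE; filled red points passed an edgeR adjusted p of 0.05. Socs3 lies far to the right of 0 in the 3 comparisons with WT and at -1.34 in the interaction, and the intervals of Socs1, Socs2 and Cish are several times wider than those of the JAKs and STATs.

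Counted over the 10 genes, few differed, and their share was near that of genes at large. In Tet2KO against WT, 3 of 10 were called, Socs3, Cish and Stat3, all higher, where 32.8% of all tested genes were called. In Id1KO against WT, 2 of 10 were called, Socs3 and Stat3, both higher, against 15.0% of all. In dKO against WT it was 2 of 10, Socs3 higher and Jak2 lower, against 19.2%. In dKO against Tet2KO, Jak2 and Stat3 were called, both lower, against 26.4% of all tested genes. In dKO against Id1KO, Socs3 and Jak2 were called, both lower, against 19.3%. The interaction was called for Socs3 and Stat3, both negative, against 14.5%. The median size of the log2 fold change over the 10 genes was 0.07 in Tet2KO against WT, where it was 0.13 over all tested genes. In the interaction it was 0.21 over the 10 genes and 0.14 over all tested genes.

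With the 3 libraries of each genotype summed and the labels taken as additive, which leaves 1 residual degree of freedom, none of the 10 genes was called in any pairwise comparison. In that fit dKO against Id1KO is the same contrast as Tet2KO against WT, and dKO against Tet2KO the same as Id1KO against WT. The interaction has no test of its own, being the residual. A large interaction, as for Socs3, thus enters the error of that gene's own test. The fit therefore cannot decide whether the calls of such genes hold.

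Per kilobase of merged exon, the scale on which genes can be compared, the SOCS transcripts as a family were scarcer than their kinases and STATs. The summed level of 8 SOCS genes was 20 ± 0.45 CPM per kb in WT and higher elsewhere, with 22.1 ± 0.42 in dKO, 23.3 ± 0.45 in Tet2KO and 23.4 ± 1.1 in Id1KO. The 4 JAKs summed to 67.1 to 70.2 CPM per kb and the 7 STATs to 106 to 113 in the genotype means. Within the STATs, Stat5b held 26.3% to 26.8% of the summed level per kb, Stat6 20.2% to 20.6% and Stat3 11.6% to 13.0%. Within the JAKs, Jak1 held 33.9% to 36.0% and Jak2 28.1% to 30.8%, with the lowest Jak2 share in dKO. Most of the SOCS level came from Socs7, Socs4 and Socs6, which are not classical cytokine feedback genes. Socs3 held 3.26% of it in WT, 5.3% in Tet2KO, 6.6% in dKO and 8.31% in Id1KO. Cish held at most 0.966% and Socs2 at most 0.44%.

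**Figure D3:**
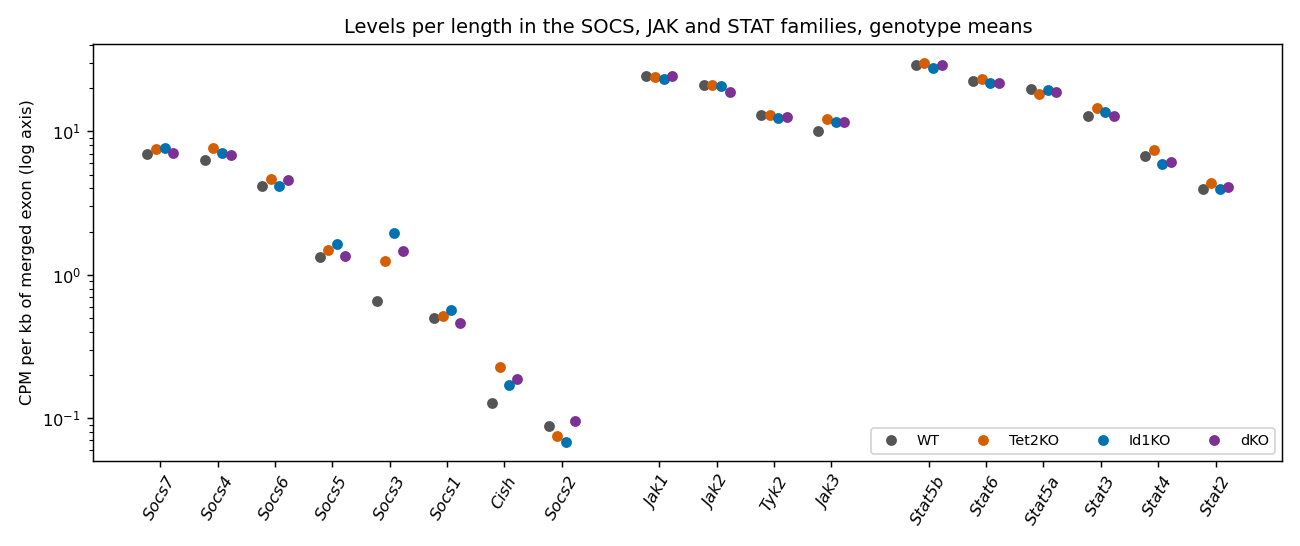
Mean level per kilobase of merged exon (log axis) of 18 SOCS, JAK and STAT genes (x axis), with 1 point per genotype label. Socs3 spans 0.655 CPM per kb in WT to 1.95 in Id1KO, a wider span than any JAK or STAT gene plotted, and Cish and Socs2 lie at the bottom, below 0.3.

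The remaining 9 SOCS, JAK and STAT genes moved by small steps. In Tet2KO against WT 4 were higher and 0 lower (44.4% called, against 32.8% of all tested genes). In Id1KO against WT 4 were higher and 2 lower (66.7% against 15.0%), and in dKO against WT 2 were higher (22.2% against 19.2%). Jak3, the kinase of the common gamma chain, was higher than WT under all 3 other labels, with log2 fold changes of 0.28 ± 0.055 (Tet2KO), 0.22 ± 0.054 (Id1KO) and 0.19 ± 0.055 (dKO; edgeR adjusted p at most 0.0186). Socs4 was higher in Tet2KO (0.27 ± 0.053) and in Id1KO (0.17 ± 0.053). Socs5 was higher in Id1KO (0.31 ± 0.089). Stat4, which carries IL-12 signals, was lower in Id1KO than in WT (-0.17 ± 0.057, edgeR adjusted p 0.0443). In the interaction 4 of the 9 were negative and 1 was positive (55.6% against 14.5%).

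Of 18 other negative regulators and adaptors, 8 were higher and 0 lower in Tet2KO against WT, 44.4% called against 32.8% of all tested genes. In dKO against WT 3 were higher and 0 lower (16.7% against 19.2%), and in Id1KO against WT 2 were higher and 2 lower (22.2% against 15.0%). Cbl, a ubiquitin ligase that removes activated receptors, moved most among them: it stood at 120 CPM in WT and 110 in Id1KO, but at 174 in Tet2KO and 163 in dKO. The log2 fold change of Cbl was 0.53 ± 0.036 in Tet2KO against WT (edgeR adjusted p 9.22e-10) and 0.44 ± 0.036 in dKO against WT (3.22e-08), and it was -0.12 ± 0.037 in Id1KO against WT (0.0313). Cblb, its close relative, was higher in Tet2KO (0.22 ± 0.058, edgeR adjusted p 0.00641). Ptpn6, the phosphatase SHP-1 that acts on JAK2, was lower in Id1KO by a log2 fold change of -0.11 ± 0.03 (edgeR adjusted p 0.0142). Usp18, an inhibitor of the interferon receptor, was higher in dKO than in Tet2KO (0.55 ± 0.18, edgeR adjusted p 0.0253). Dusp3, a phosphatase, was lower in dKO than in Id1KO (-0.36 ± 0.096, edgeR adjusted p 0.0125).

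Of 33 receptors that signal through JAKs, 29 were tested, and Osmr, Il2ra, Prlr and Lepr were too low. In Tet2KO against WT 16 were higher and 3 lower, 65.5% called against 32.8% of all tested genes, with a median log2 fold change of 0.23 over the 29. In Id1KO against WT 2 were higher and 6 lower (27.6% against 15.0%), with a median of -0.05. In dKO against WT 10 were higher and 3 lower (44.8% against 19.2%). Epor, the erythropoietin receptor, was lowest in Tet2KO, at 14 ± 0.36 CPM, against 26.2 ± 1.1 in WT, 23.9 ± 1.6 in dKO and 27 ± 0.91 in Id1KO. Its log2 fold change was -0.91 ± 0.063 in Tet2KO against WT (edgeR adjusted p 1.24e-09), and its interaction was 0.73 ± 0.086 (7.43e-06). Of 18 erythroid markers, Epor included, 17 were lower in Tet2KO than in WT, and their summed level was 1197 to 1215 CPM in the Tet2KO libraries against 1991 to 2046 in WT. In bulk RNA, fewer cells of a type and less RNA per cell cannot be told apart.

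Csf2rb2, the mouse IL-3 receptor beta chain, was higher in Tet2KO (0.64 ± 0.12, edgeR adjusted p 0.000328) and in dKO (0.83 ± 0.12, 3.12e-05) than in WT. Lifr, the receptor for leukemia inhibitory factor, was higher in Tet2KO (0.79 ± 0.2, edgeR adjusted p 0.00381) and in dKO (0.76 ± 0.2, 0.0097). Il7r, the lymphoid IL-7 receptor, was higher in Tet2KO than in WT (0.68 ± 0.2, edgeR adjusted p 0.0131) and lower in dKO than in Tet2KO (-0.57 ± 0.21, 0.0465). Both Lifr and Il7r were low, at 1.3 to 2.3 and 1.5 to 2.7 CPM in the genotype means. Ifngr1, the ligand-binding chain of the interferon-gamma receptor and the highest receptor per kb, was lower than WT under all 3 labels. Its mean was 337 CPM in WT, 291 in Id1KO, 283 in Tet2KO and 270 in dKO, with log2 fold changes of -0.21, -0.25 and -0.32 against WT in the same order (SE 0.026 each, edgeR adjusted p at most 9.46e-06).

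Of 18 genes known to be induced by STAT factors, 7 were higher and 2 lower in Tet2KO against WT, 9 of 18 called against 32.8% of all tested genes, with a median log2 fold change of 0.15. In Id1KO against WT 4 were higher and 1 was lower (27.8% against 15.0%), and in dKO against WT 7 were higher and 2 lower (9 of 18 against 19.2%). Bcl3, a nuclear co-regulator of NF-kB, had its means in the order of Socs3, with 3.42 CPM in WT, 4.59 in Tet2KO, 5.05 in dKO and 5.61 in Id1KO. It was higher in Id1KO than in WT by 0.71 ± 0.15 on the log2 scale (edgeR adjusted p 0.00235). Its interaction was -0.57 ± 0.21 and did not pass (edgeR adjusted p 0.0717). Pim1 and Id1 of the list had this order of means as well. Pim1, named after its values were seen, stood at 102.8 CPM in WT, 117.1 in Tet2KO, 132.3 in dKO and 157.1 in Id1KO. It was higher in Id1KO than in WT by 0.61 ± 0.031 on the log2 scale (edgeR adjusted p 2.86e-11). The interaction of Pim1 was -0.44 ± 0.044 (edgeR adjusted p 1.06e-06). Id1 itself belongs to this list and was higher than WT under all 3 labels, by 1.39 ± 0.17 (Tet2KO), 1.43 ± 0.17 (Id1KO) and 1.42 ± 0.17 (dKO; edgeR adjusted p at most 8.11e-06). Ccnd1, which encodes cyclin D1, fell in Tet2KO (-1.04 ± 0.067, edgeR adjusted p 5.01e-10) and dKO (-0.95 ± 0.067, 3.25e-09) and had a log2 fold change of -0.03 ± 0.06 in Id1KO. Gadd45g, a stress response gene at only 1.8 to 3.0 CPM in the genotype means, was lower in Tet2KO (-0.66 ± 0.17, edgeR adjusted p 0.00505). Mcl1, a survival factor and the highest gene of the list per kb, was lower in dKO than in WT (-0.15 ± 0.031, edgeR adjusted p 0.00122).

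**Figure D4:**
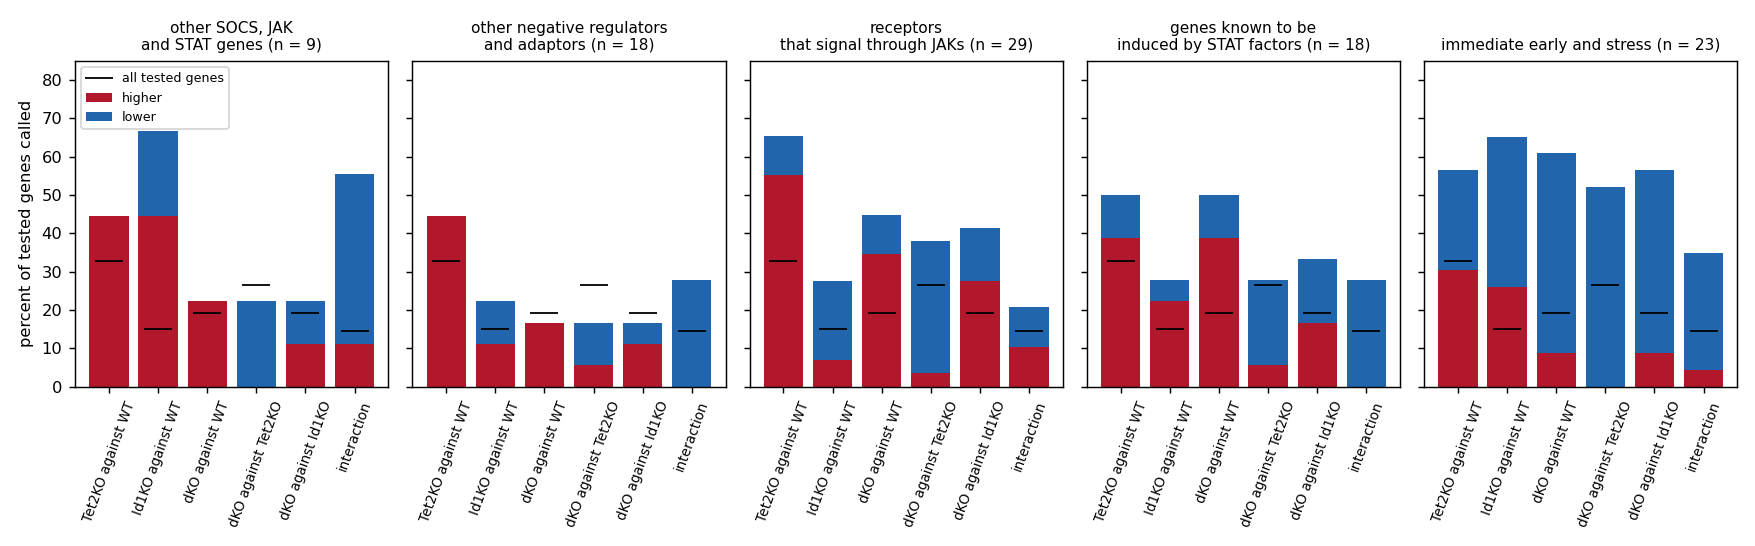
Percent of tested genes called (y axis) in 5 lists of pathway genes (panels) for the 5 pairwise comparisons and the interaction (x axis), split into higher (red) and lower (blue; positive and negative for the interaction). Black dashes mark the percent among all tested genes, 32.8 in Tet2KO against WT, where the receptors reach the tallest bar of the first comparison and are mostly higher.

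Immediate early and stress genes, which cells can switch on within minutes of handling, were counted beside Socs3. Of 25 such genes 23 were tested. In Id1KO against WT 6 were higher and 9 lower, 65.2% called against 15.0% of all tested genes. In Tet2KO against WT 7 were higher and 6 lower (56.5% against 32.8%), and in dKO against WT 2 were higher and 12 lower (60.9% against 19.2%). Fos had means of 283 CPM (WT), 262 (Tet2KO), 224 (Id1KO) and 223 (dKO), and Fosb of 246, 198, 149 and 115. Nr4a1, at only 1.7 to 2.85 CPM in the genotype means, was lower in Id1KO than in WT (-0.74 ± 0.18, edgeR adjusted p 0.00913). The 6 genes higher in Id1KO than in WT were Ier3, Nfkbia, Nfkbiz, Tnfaip3, Hspa1a and Hspa1b, of which the first 4 were named after their values were seen. Ier3, an early response gene, was lowest in WT at 11.6 CPM and highest in Id1KO at 16.3, as Socs3 was, with 14.6 in Tet2KO and 12.5 in dKO. Tnfaip3, an inhibitor of NF-kB, stood at 37.4 CPM in WT and 49.1 in Id1KO. Unlike Socs3, it was lower than WT in Tet2KO (30.5 CPM) and dKO (31.2 CPM). The heat shock genes Hspa1a and Hspa1b are near-identical copies, so the split of reads between them is uncertain. Hspa1a stood at 12.4 CPM in WT and 18.9 in Id1KO, and Hspa1b at 17.6 and 29.3, and both were highest in Tet2KO, at 43.8 and 56.8. The list thus held genes that moved with Socs3 and against it, and its part in the Socs3 difference was not tested.

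Markers of other cell types also moved with the labels. The summed level of 12 megakaryocyte markers was 379 to 392 CPM in the Id1KO libraries and 292 to 324 in the other 9. In Id1KO against WT 4 of the 12 were higher and 0 lower (33.3% called against 15.0% of all tested genes). The summed level of 13 mast cell, basophil and eosinophil markers was 629 to 636 CPM in Id1KO and 444 to 557 in the others, and Tpsb2 of that list was at 0 throughout. Of 11 tested, 3 were higher and 1 lower in Id1KO against WT (36.4% called against 15.0% of all tested genes). The largest rises in CPM were those of Prg2, from 186.7 in WT to 253.5 in Id1KO, and Epx, from 46.4 to 68.7. Hdc was lower, at 120.3 CPM in WT and 112.4 in Id1KO. The 14 neutrophil granule markers summed to 12350 to 13310 CPM in Id1KO, 12120 to 13300 in dKO, 14550 to 14630 in WT and 16040 to 16280 in Tet2KO. Mpo alone, at 8428 to 11140 CPM in the genotype means, made up most of these sums. Of the 14, 7 were higher and 4 lower in Tet2KO against WT (78.6% called against 32.8% of all tested genes). In Id1KO against WT 2 were higher and 2 lower (28.6% against 15.0%). The monocyte and dendritic markers summed to 746 to 750 CPM in Id1KO and to 839 to 933 in the others. Of 13 tested, 1 was higher and 5 lower in Id1KO against WT (46.2% called against 15.0% of all tested genes). The lymphoid markers summed to 277 to 285 CPM in Id1KO and 287 to 369 in the others. Of 15 lymphoid markers tested, 0 were higher and 2 lower in Id1KO against WT, 13.3% called, which is below the 15.0% of all tested genes. The part of these markers in the Socs3, Stat3 and Jak2 differences was not tested.

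Of the 10 genes, Socs3 alone had genotype means that ranged over at least 1 on the log2 scale, so other genes were ranked by likeness to it. Over the 12 libraries and 9767 genes with a mean of at least 5 CPM, each centred on its own mean, the nearest were Ddx3y, Trpc6 and Mycn. The root mean square difference of log2 CPM was 0.289, 0.31 and 0.322. Ddx3y, a Y-linked RNA helicase, stood at 48.9 ± 2.5 CPM in WT, 82.1 ± 3.0 in dKO, 87.8 ± 3.4 in Tet2KO and 93.4 ± 4.5 in Id1KO. Only male cells carry this gene, and whether the share of male cells differed between the labels was not tested. A difference in that share could not be told apart from the genotype labels in any comparison. Trpc6, a cation channel, had means of 4.68 ± 0.92 (WT), 6.17 ± 0.65 (Tet2KO), 8.28 ± 0.27 (Id1KO) and 6.44 ± 0.13 CPM (dKO). Mycn, a MYC family transcription factor, stood at 6.73 ± 0.18, 9.03 ± 0.28, 12 ± 0.8 and 9.32 ± 0.68 CPM in the order of Trpc6. All 3 were lowest in WT and highest in Id1KO, and they were chosen for that likeness, so their values are a description.

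**Figure D5:**
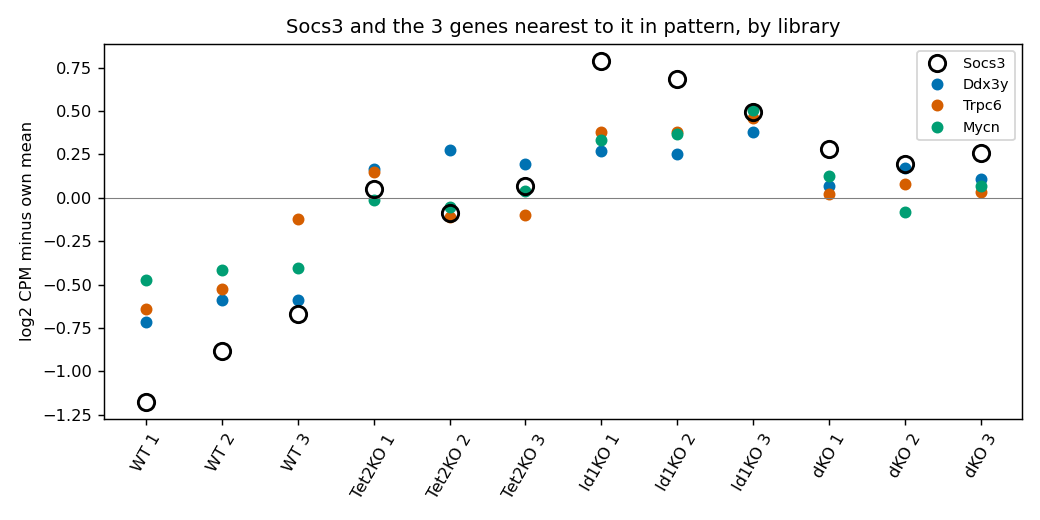
Log2 CPM of Socs3 (open black circles) and of the 3 genes nearest to it in pattern (filled points) minus each gene's own mean (y axis), in the 12 libraries (x axis). All 4 genes lie below 0 in the WT libraries and above 0 in the Id1KO libraries.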

How the data were processed

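The authors deposited 1 table of estimated counts per gene, also called expected counts, for 55450 genes and 12 libraries, not normalized; STAR, RSEM and mm10 are named in the submitters' processing notes, and a stranded total RNA kit per the labels' protocols. Values that were not whole occurred in 8.25% of genes. The strand setting is not given in the sources used here. All 55450 identifiers matched GENCODE M21 (GRCm38), from which positions and exonic lengths were taken.

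Counts were rounded. Genes were kept by filterByExpr with a minimum count of 10 (14346 genes), scaled by TMM and fitted with 1 mean per genotype label over all 12 libraries by edgeR's quasi-likelihood model. Two-sided F-tests were adjusted by the Benjamini-Hochberg method over all genes tested, with a threshold of 0.05. SE were taken from the fit, and intervals are 1.96 SE. The interaction is (dKO minus Tet2KO) minus (Id1KO minus WT). With 3 libraries on each side no exact permutation test can reach a p under 0.1, so none was made. The 12 pairs of libraries of 1 genotype all differed by more than sampling noise, and each library was counted. Levels per kb divide CPM by merged exon length. Steps were tested on simulated data.

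The members and the gene lists were chosen with earlier results of these data known. Named genes were the 10 members, Tet2, Id1, from each pathway list the highest per kb and up to 4 called genes with the widest range of genotype means, and the 3 genes most like a member that ranged over at least 1. Marker lists give their summed levels. A gene that the rule names is not reported here. Protein sequences were not used here. The tools were edgeR 4.0.16, DESeq2 1.42.0 and limma 3.58.1 in R 4.3.3, blast 2.17.0, and matplotlib 3.10.9 in Python 3.11.15.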

Additional observations from a re-analysis of the deposited data

Results flagged for a closer look

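For the following genes named in the text the difference between Id1 labels depended on the Tet2 label by the edgeR interaction test. The values are log2 interactions with adjusted p. Among the 10 core genes these were Socs3 at -1.34 (0.000147), where Id1KO stood 1.57 above WT and dKO 0.23 above Tet2KO, and Stat3 at -0.28 (0.000136), where the same differences were 0.1 and -0.18. In the pathway lists they were Id1 at -1.4 (0.000301), Epor at 0.73 (7.43e-06), Socs5 at -0.45 (0.0233), Socs4 at -0.32 (0.00718), Jak3 at -0.3 (0.0126), Socs7 at -0.24 (0.0102) and Ifngr1 at 0.15 (0.0113). Those lists also held Pim1 at -0.44 (1.06e-06), named after its values were seen. Among immediate early and stress genes they were Hspa1a at -2.92 (8.22e-15), Hspa1b at -2.61 (1.62e-13), Ier3 at -0.71 (0.000537), Tnfaip3 at -0.36 (0.00281) and Nfkbia at -0.31 (0.00733), and among the sort markers Ly6c2 at -0.17 (0.0066). Among the other cell type markers named they were Mpo at -0.155 (0.0328), Prg2 at -0.658 (1.05e-09), Epx at -0.614 (2.66e-06) and Hdc at -0.242 (0.0017). Among the genes most like Socs3 they were Ddx3y at -1.03 (4.71e-10), Mycn at -0.79 (0.000243) and Trpc6 at -0.76 (0.00592), which were chosen for their likeness to a gene with a negative interaction. The cause of these differences was not tested.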

How the results depend on the processing

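Of 1179 alternative values for the 10 genes, 1130 kept their side of the threshold, 40 lost the call, 7 gained one and 2 reversed. Direction was compared only where the main or the alternative value was called. Changes of sign among uncalled values are therefore not counted as reversals, and some occurred. The reversals came with libraries summed per genotype and additive labels: Stat3 was at -0.037 in Id1KO against WT and Socs3 at 0.195 in dKO against Id1KO (log2, neither called). Additive labels give 1 value per label, so dKO against Id1KO repeats Tet2KO against WT, and dKO against Tet2KO repeats Id1KO against WT. Both reversals combine comparisons that had opposite signs in the main fit. In that fit, which leaves 1 residual degree of freedom, 0 members were called in the 5 pairwise comparisons, and 232, 7, 11, 7 and 232 of all genes were called in Tet2KO, Id1KO and dKO against WT, dKO against Tet2KO and dKO against Id1KO. Against a 1.2-fold change (glmTreat) the members called were 1, 1, 1, 0, 0 and, for the interaction, 1, and all genes called were 769, 140, 477, 334, 481 and 237. DESeq2 called 1 member in Id1KO against WT, 1 in dKO against Id1KO, and 1342 genes for the interaction, and without the filter 1 member was called in Id1KO against WT. Leaving out 1 library gave 2 to 4 members in Tet2KO against WT, 1 to 2 in Id1KO against WT, 1 to 2 in dKO against WT, 2 in dKO against Tet2KO, 0 to 2 in dKO against Id1KO and 2 to 3 for the interaction. Whether the replicate numbers pair the libraries is not settled by these values. Same-numbered libraries of different genotypes had correlations of -0.448 to 0.395 (median 0.091), and differently numbered ones of -0.524 to 0.677 (median -0.01). A replicate block gave 3, 2, 2, 2, 2 and 2 members and 4523 genes in Tet2KO against WT. RLE and upper-quartile scaling called Stat3 in dKO against Id1KO as well. Depth limits Socs1, Socs2 and Cish, with 10 to 38 counts per library.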
